A study of Homo sapiens with 2 samples.

Results

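Cytosolic ribosomal protein genes encode the proteins that, with ribosomal RNA, build the 60S and 40S subunits of the cytosolic ribosome. Members were every gene probe on both arrays whose symbol was RPL or RPS with a number, with an optional letter A, X or L and a further digit, together with RPLP0, RPLP1, RPLP2, RPSA and FAU. The S6 kinase genes, whose symbols also start with RPS, were left out. These symbols gave 85 of 25940 genes and 168 of 34127 probes. Of the 85 genes, 41 had 1 probe, 23 had 2, 9 had 3, 10 had 4, 1 had 5 and RPL21 had 9.

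The data came from MKN74 and MKN45, both gastric cancer (GC) cell lines, after electroporation with 50 nM siRNA. RNA was taken at 48 hrs from cells given SET7/9 siRNA and from cells of the same line given negative control siRNA. One two-colour array was hybridised per line, with SET7/9 siRNA cells in Cy5 and control cells in Cy3 on both. Every ratio is therefore 1 measurement per line, no dye swap was made, and neither a ratio nor a difference between lines has a replicate test. Which of the study's SET7/9 siRNAs was hybridised is not given in the sources used here.

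Ribosomal protein mRNAs are among the most abundant in a growing cell, and their proteins are made in matched amounts. Most of these mRNAs begin with a C followed by an unbroken run of C and T (U in the RNA), the 5′ terminal oligopyrimidine (TOP) tract, through which the mTORC1 pathway controls their translation. Several members have paralogs with tissue-restricted or regulated expression, and RPL5 and RPL11, which bind 5S ribosomal RNA, also bind MDM2 and link ribosome assembly to p53.

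SETD7, the gene of the H3K4 mono-methyltransferase SET7/9, read -2.03 in MKN74 and -1.95 in MKN45 on the log2 scale at its first probe (chr4:140427692-140427751, GRCh37). Its second probe (chr4:140453844-140453903) read 0.24 and -0.23. GAPDH, a glycolytic enzyme, read -0.079 in MKN74 and -0.0003 in MKN45. All 9 epithelial markers were well above background in the control cells of both lines, among them EPCAM, KRT8 and CDH1. Of the markers of other cell types, 1 of 5 for fibroblasts, 1 of 4 for leukocytes and 1 of 3 for endothelium were so in MKN74 (COL1A1, CD14 and CDH5), and 2 of each in MKN45 (also LUM, PTPRC and PECAM1). Their part in the results was not tested.

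The TOP tract was searched at the transcript starts of the RefSeq promoter table (GRCh38.p14), on the strand of the gene only, as a C at the first transcribed base followed by at least 4 bases that are C or T. Of the 85 genes, 68 had an entry in the table, and a gene with several listed starts was counted if any of them held the tract. At the listed start, 48 of these 68 genes (70.6%) held such a tract, against 5.14% of the 27305 genes of the table. A tract was then also counted if its first C lay within 10 bases on either side of the listed start and followed a base other than C or T. With these included, the shares were 80.9% and 30.6%. The windows of genes on which the results turn are shown from 15 bases before the listed start to 10 bases from it on, with a tract at the start in capitals. The first 5 are core members and the last 5 are paralogs.
RPS6, chr9:19380227-19380251, minus strand: aagcggaagttggccCTCTTTTCCg
RPL29, chr3:51995886-51995910, minus strand: caccgcagcccctttCTCTTCCggt
RPS21, chr20:62387088-62387112, plus strand: ggtgactagctgcttCCTTTCTCTC
RPL27A, chr11:8682777-8682801, plus strand: ttggcgaaggccttcCTTTTTCgtc
RPL34, chr4:108620561-108620585, plus strand: aaaggcttttttcttCCTCTTCCgg
RPL22L1, chr3:170870186-170870210, minus strand: cgcggccgtagcttcCTCTCTgctc
RPS27L, chr15:63157468-63157492, minus strand: aagttgatgccgagcgcagatcgct
RPL7L1, chr6:42879601-42879625, plus strand: cggaagtgcggcgccgtagctagga
RPL26L1, chr5:172958714-172958738, plus strand: agtcttccaggggtcggcgaacgaa
RPL10L, chr14:46651772-46651796, minus strand: caggcgtagttaagagagcgcattt
RPL34 has a second listed start (chr4:108620614-108620638) without the tract. Of the 5 paralogs in the table, only RPL22L1 held the tract at a listed start. On the arrays, the median log2 ratio of SET7/9 siRNA over control of the 48 genes with the tract was 0.096 in MKN74 and 0.070 in MKN45, and that of the 20 genes without it was 0.040 and 0.026. Both groups lay on either side of 0 in both lines, and their ranges overlapped.

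After SET7/9 knockdown the ribosomal protein genes read near the control level in both lines in the scanner software's dye-normalized ratios. Their spread of ratios was smaller than over all genes, dim ones included. The median log2 ratio over genes was 0.065 in MKN74 (84 genes) and 0.051 in MKN45 (85 genes), against 0.007 and 0.016 over all genes. With background-subtracted signals and 1 constant per array it was 0.48 and 0.37, against 0.002 and -0.0007 over all genes. How far the dye normalization brought the members near 0 was not tested. The SD between member probes measured in both channels was 0.15 and 0.14, against 0.22 and 0.23 over all such probes. For comparison, the SD between spots of the same probe on 1 array was 0.087 in MKN74 and 0.099 in MKN45, and the median error that the scanner software gave to a member probe was 0.20. The 158 member probes for RefSeq mRNAs had a median Cy3 signal of 54522 in MKN74. Probes of like signal were not compared, so the narrower spread cannot be told apart from that of bright probes. Of 84 member genes measured in both channels in both lines, 16 (19.0%) in MKN74 and 10 (11.9%) in MKN45 were past the error of their probes, against 20.5% and 20.0% of all such genes.

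Of the 84 genes measured in both channels in both lines, 49 read above 0 in both and 20 below 0 in both, and 15 had opposite signs. Over all such genes, 31.8% read above 0 in both and 33.6% below. RPL23, RPL31 and RPL34 were among 4 of the 84 members above the software's error in both lines, against 3.08% of all genes, and 0 members were below it in both, against 2.94%. RPL34 read 0.30 in MKN74 and 0.30 in MKN45, and RPL23, which can bind MDM2, read 0.28 and 0.27. RPL31 read 0.22 and 0.28. Also among the 5 highest gene means of a line were RPS21 (0.35) and RPS12 (0.28) in MKN74, which read 0.20 and 0.20 in MKN45, and RPS25 (0.26) and RPL12 (0.24) in MKN45, which read 0.20 and 0.16 in MKN74. The RPS21 mean in MKN74 includes a probe not measured in Cy3 and was 0.10 without it. These genes were named as highest in a line or above the error in both, so their sign follows in part from the choice. Both arrays had the same dye orientation.

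RPL27A was lowest in MKN74, at -0.27 against -0.15 in MKN45. Its 1 probe starts at base 4551 of the transcript and had a Cy3 signal of 72.8 in MKN74. The median there of member probes for RefSeq mRNAs was 54522. RPL7L1, which acts in early assembly of the large subunit, read -0.19 in MKN74 and was lowest in MKN45 at -0.29. RPL36 read -0.17 and -0.095, RPL29 -0.13 and -0.12, and RPL17 -0.020 and -0.17. RPL3L was second lowest in MKN45 at -0.24, against 0.21 in MKN74, and 0 of these genes were below the software's error in both lines.

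**Figure D1:**
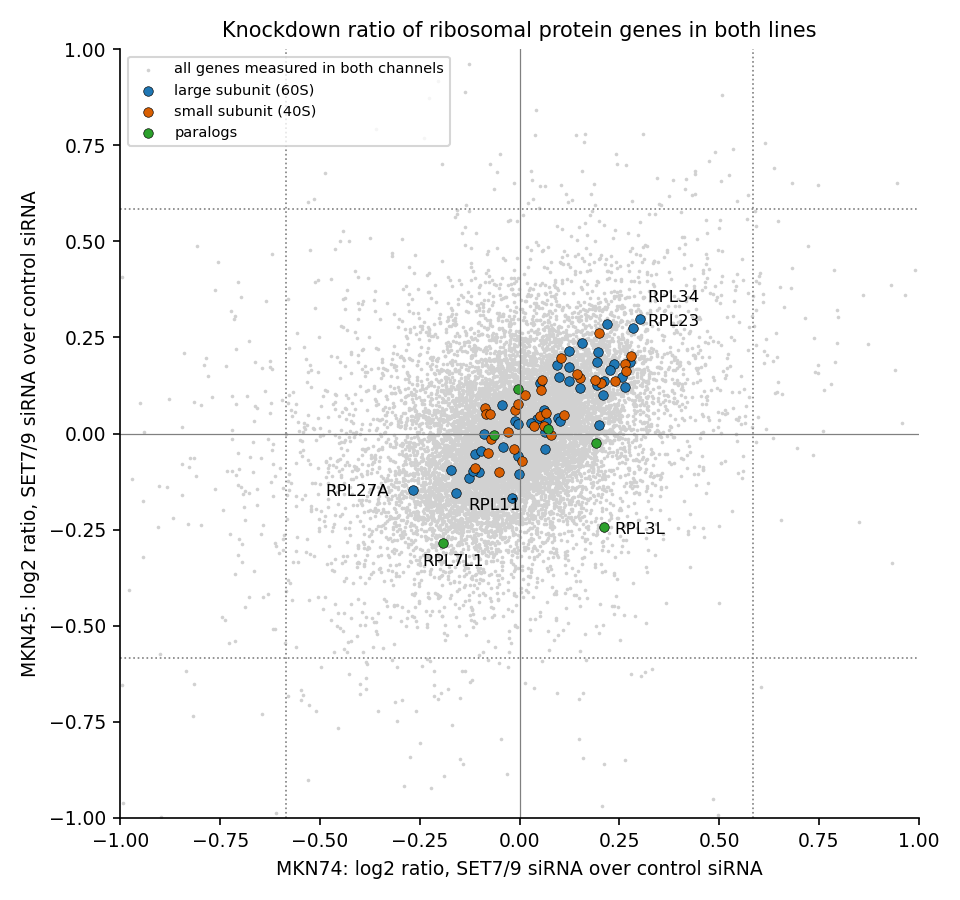
Each point is the mean log2 ratio of a gene over probes measured in both channels, in MKN74 (horizontal) and MKN45 (vertical): grey for all genes, blue for 60S, orange for 40S and green for paralogs. Dotted lines mark 1.5-fold and grey genes beyond 1 on either axis lie outside the frame. The coloured points, 83 genes, run along the diagonal between -0.29 and 0.30, with RPL3L (0.21 and -0.24) off it.

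The 46 genes of the 60S subunit had a median of 0.08 in MKN74 and 0.04 in MKN45, and the 32 of the 40S subunit had 0.06 and 0.06. RPLP0, the base of the stalk that recruits translation factors, read 0.12 and 0.17, while the stalk proteins RPLP1 (-0.096 and -0.046) and RPLP2 (-0.12 and -0.097) read below 0. RPL5 read 0.15 and 0.12, and its partner in the 5S particle, RPL11, read -0.16 and -0.15. RPS27A, made as a fusion with ubiquitin, read 0.14 and 0.16, and FAU, a fusion of a ubiquitin-like protein with the S30 protein, 0.20 and 0.13. RPS6, the substrate of the S6 kinases, read 0.068 and 0.031 at its mRNA probe, which was printed 10 times on each array, and -0.22 and 0.072 at a probe for another transcript. Its gene mean was -0.075 in MKN74 and 0.051 in MKN45. RPSA, also known as the laminin receptor, read -0.11 and -0.090.

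A cutoff of 1.5-fold (0.58 on the log2 scale) was passed by 2 of 164 member probes kept in MKN74, both upward, against 3.78% of all kept probes upward and 1.76% downward. In MKN45, 0 of 166 member probes passed it in either direction, against 4.81% upward and 1.97% downward over all probes. Among probes measured in both channels, 0 of 161 in MKN74 and 0 of 165 in MKN45 passed it. Over all such probes the shares were 0.64% upward and 1.45% downward in MKN74, and 0.814% and 1.62% in MKN45. No gene mean passed 1.5-fold in either line, although with background-subtracted signals and 1 constant per array 23 genes did in MKN74 and 12 in MKN45. The share of all genes past it in that setting was not counted. As processed here, member probes measured in both channels lay between -0.27 and 0.49 in MKN74 and between -0.32 and 0.50 in MKN45.

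Both probes past 1.5-fold were for transcripts outside the RefSeq mRNAs, with the control channel not well above background in MKN74. The RPS21 probe (chr20:60963037-60963096, GRCh37) read 0.84 in MKN74, which stands for at least 1.72-fold higher, and 0.064 in MKN45. Other RPS21 probes read 0.12 and 0.087 in MKN74, and 0.36 and 0.17 in MKN45. The RPS4X probe (chrX:71494105-71494164) read 0.62 in MKN74, with no bound above 1-fold, and 0.086 in MKN45, while the RPS4X mRNA probe read -0.073 and -0.12. Of 10 member probes for other transcripts, 6 were measured in both channels on both arrays, compared with 155 of 158 for RefSeq mRNAs.

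With both arrays taken as replicates of 1 response, limma called 0 of 164 member probes at a Benjamini-Hochberg adjusted p under 0.05, and 0.0% of all 19595 probes. The first probe of the knockdown target SETD7, with a mean of -1.99, was not called either. The smallest adjusted p among members was 0.3555, at an RPL23 probe with a mean of 0.49 and an SE of 0.067 that read above 0 on 2 of 2 arrays. Over the alternatives the smallest adjusted p among members ran from 0.001065 to 0.3804. At an unadjusted p under 0.05 there were 15 member probes, 12 upward and 3 downward (9.15%), against 13.1% of all probes. With normexp background correction and loess in place of the scanner's own normalization, limma called 46 member probes, 45 upward and 1 downward (28.0%). Of all probes 8.72% were called, 1155 of these 1708 upward. Both arrays had the same dye orientation, so in these calls a common response and a dye effect of a probe cannot be told apart. Under normexp and loess, which change the background correction and the dye normalization together, the member median was 0.14 in MKN74 and 0.15 in MKN45. With background-subtracted signals and 1 constant per array it was 0.48 and 0.37. Among member probes, the ratio correlated with the mean signal at r = 0.15 in MKN74 and r = 0.24 in MKN45 (Pearson, Spearman 0.28 and 0.30, 161 probes, which share arrays and dyes).

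**Figure D2:**
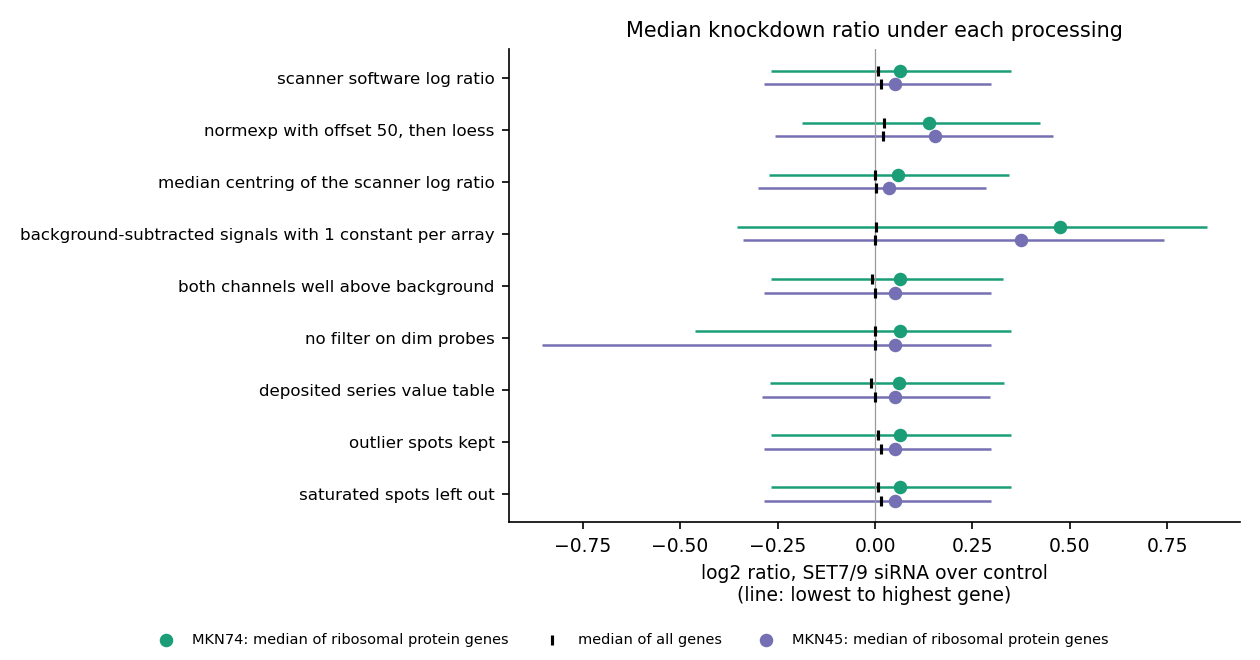
Points give the median log2 ratio of the ribosomal protein genes (MKN74 green, MKN45 violet) under each processing, lines run from the lowest to the highest gene, and black ticks mark the median of all genes. The median lies between 0.037 and 0.15 in all settings but the background-subtracted signals with 1 constant per array, where it is 0.48 and 0.37.

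Ratios of the 161 member probes measured in both channels on both arrays correlated between lines at r = 0.74 (Spearman 0.75), with 134 of 161 of like sign. Over all 17362 such probes r was 0.39 (Spearman 0.40), and 65.9% were of like sign. The values are a description across probes, which share the array design and the same dye orientation, so a response common to both lines and a dye effect of a probe cannot be told apart.

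Probes of the same gene differed from each other as much as genes did. Over the 42 genes with several probes measured in both channels (119 probes), the SD between probes of a gene was 0.11 in MKN74 and 0.11 in MKN45, and the SD between genes was 0.097 in both. In 18 of these genes in MKN74 and 19 in MKN45, probes of 1 gene fell on both sides of 0. The departure of a probe from its gene mean on 1 array correlated with that on the other at r = 0.71 over the 119 probes. A probe that read above its gene mean in 1 line thus mostly did so in the other (93 of 119 probes of like sign). Departures cancel out within a gene, and in a gene with a single pair of probes they mirror each other. The 119 probes are therefore not separate comparisons.

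By the range averaged over both lines, RPL23A had the widest spread, its 4 probes lying between -0.25 and 0.031 in MKN74 and between -0.32 and 0.17 in MKN45. The 3 RPL23 probes read 0.49, 0.19 and 0.17 in MKN74, and 0.50, 0.23 and 0.099 in MKN45. The 2 RPL37 probes read 0.12 and -0.20 in MKN74, and 0.14 and -0.21 in MKN45. RPL37 thus had probes of opposite sign in both lines, the second of them with a Cy3 signal of 62.3 in MKN74. The 4 RPS15A probes lay between -0.20 and 0.14 in MKN74 and between -0.089 and 0.17 in MKN45. The 3 RPL17 probes lay between -0.12 and 0.16 and between -0.29 and -0.013. The GC content of the member probes, from 35% to 55%, correlated with the ratio at r = 0.077 in MKN74 and 0.045 in MKN45 (161 probes).

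**Figure D3:**
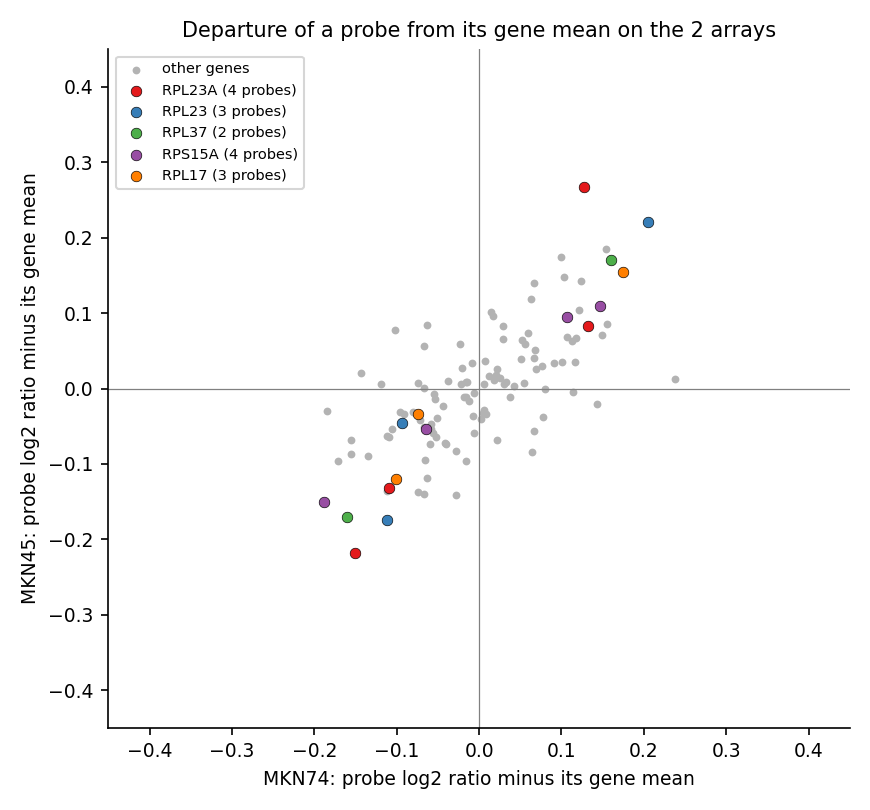
Each point is 1 of 119 probes, placed by its log2 ratio minus the mean of its gene in MKN74 (horizontal) and MKN45 (vertical); the 5 genes with the widest spread are coloured. Probes lie along the diagonal (r = 0.71), and RPL23, RPL37 and RPL17 each have probes at both ends. Departures cancel out within a gene, so its probes are not separate points.

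In control cells, most ribosomal protein genes read higher in MKN45 than in MKN74. The level is the log2 Cy3 signal of a probe minus the 75th percentile of its array, and the line difference is taken only between the same probes. It was above 0 in 74 of 84 genes, with a median of 0.49 (1.40-fold), against 0.038 over all genes. At 1.5-fold, 62 of 161 member probes (38.5%) were higher in MKN45 and 4 (2.48%) lower, against 27.9% and 28.1% of all probes. Member probes thus lay mostly on 1 side, where all probes split evenly. Probes of like signal were not compared, so this cannot be told apart from a difference of bright probes between the arrays. Counted by gene, 27 of 84 (32.1%) were higher and 1 (1.19%) lower, against 27.8% and 27.6% of all genes. The share of higher genes was thus near that of all genes, and the share of lower genes was smaller. In the SET7/9 siRNA cells (Cy5), 70 of 164 member probes were higher (42.7%) and 5 lower (3.05%), against 29.3% and 28.0% of all probes, with a gene median of 0.43. Cy5 was read from the same spots of the same arrays. Over all 17362 probes its line difference correlated with that of Cy3 at r = 0.99. It is therefore not an independent measurement of the lines. These are levels relative to other RNA on the array, in bulk samples where fewer cells and less RNA per cell cannot be told apart.

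The size of the difference and the share past 1.5-fold depended on the scaling. With quantile normalization the Cy3 median over genes was 0.11 and with the median of all kept probes as reference it was 0.78, while the median of all probes moved from 0.027 to -0.14 and 0.32. Relative to the median of all probes, the members were 0.46 higher as processed here, 0.26 with quantile normalization and 0.31 with normexp. At 1.5-fold, 13 of 84 member genes (15.5%) were higher after quantile normalization and 4 lower, against 23.3% and 33.2% of all probes. The share of higher members was then below that of all probes. On 20 of the 21 chromosomes that carry members, the member median exceeded the median of all probes of that chromosome. The exception was chromosome 18 with RPL17 alone (0.51 against 0.57). GAPDH read -0.78 on the same scale.

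Among genes measured in both lines, the highest differences were RPS27L, a paralog that p53 can induce, at 1.79 (3.45-fold), RPL29 at 1.70 (3.26-fold), RPL37 at 1.64, RPS21 at 1.36 and RPS15 at 1.30. RPS27L had a Cy3 signal of 13453 in MKN74 and 40833 in MKN45. The 4 RPL29 probes gave 1.60 to 1.76 and so stood together, with Cy3 signals between 3027 and 31541 in MKN74 and between 9014 and 84168 in MKN45. The Cy5 differences were 1.56 for RPS27L and 1.70 for RPL29. The RPL37 probes read 0.81 and 2.47, and only the first was bright (52190 in MKN74).

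The lowest were RPL5 at -0.63, RPL7L1 at -0.55, RPL9 at -0.44, RPS2 at -0.40 and RPL35 at -0.40. In Cy5 they read -0.67, -0.66, -0.45, -0.49 and -0.41. RPL7L1 had 1 probe, with a Cy3 signal of 3995 in MKN74 and 2396 in MKN45. RPL9 had 69866 and 45353, and the RPL35 probes had 101957 against 74590 and 34633 against 21105. The 5S partner of RPL5, RPL11, was on the other side at 0.60.

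**Figure D4:**
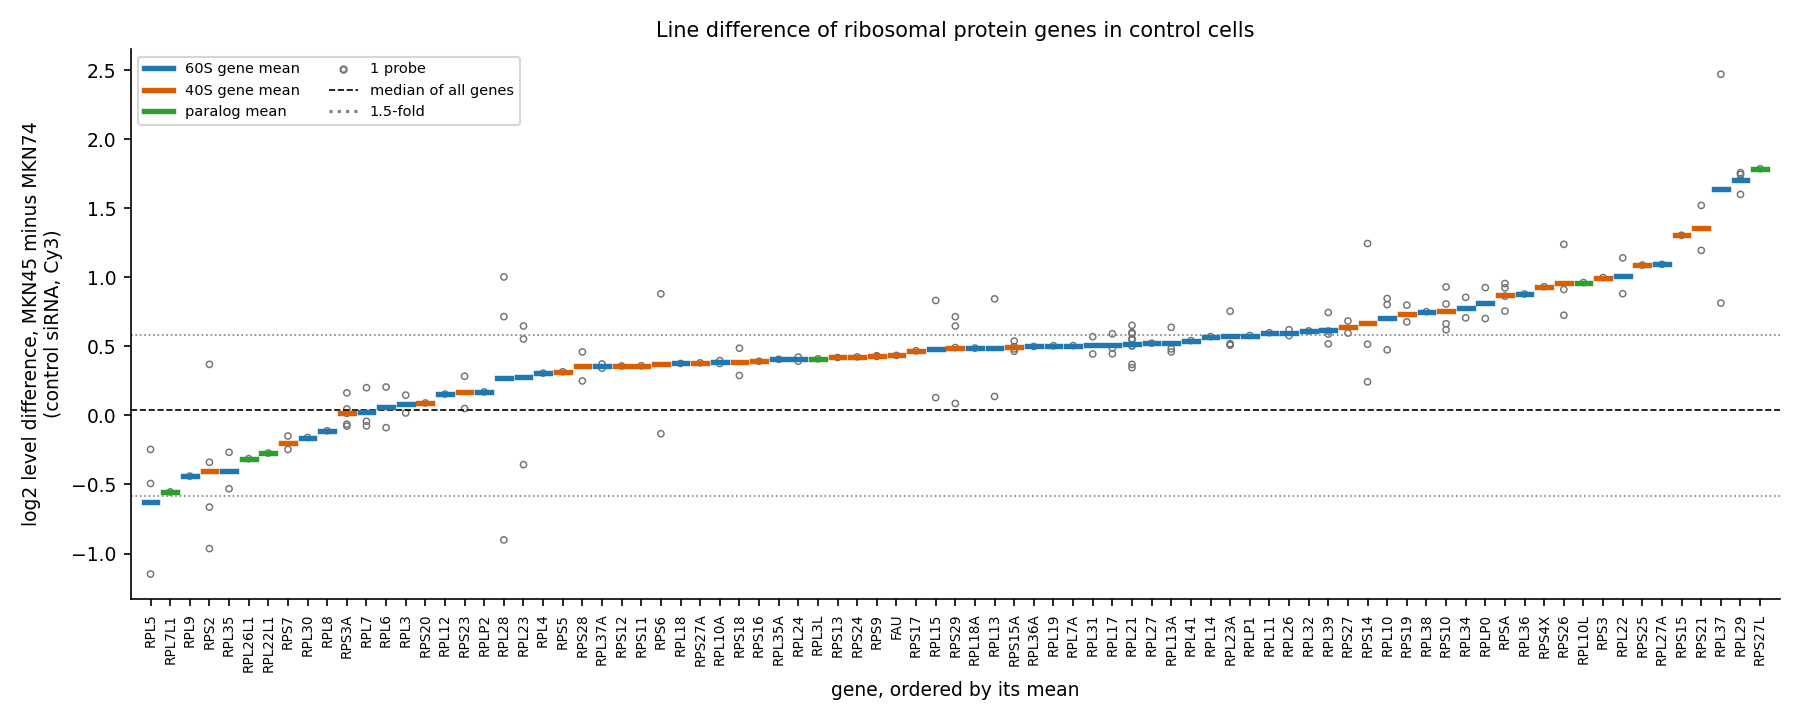
For 83 genes in order of their mean, the log2 Cy3 level in MKN45 minus that in MKN74 is shown as a bar (gene mean, blue 60S, orange 40S, green paralogs) and open circles (single probes); the dashed line is the median of all genes and dotted lines mark 1.5-fold. The means run from -0.63 for RPL5 to 1.79 for RPS27L, and 73 of 83 lie above 0.

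Probes of RPL5 and RPS2 differed in a way that followed their place in the transcript. The 3 RPL5 probes, which start at bases 179, 666 and 886, read -1.15, -0.49 and -0.25. Their Cy3 signals were 18027, 93816 and 91163 in MKN74 and 7160, 58686 and 67661 in MKN45. The RPS2 mRNA probes at bases 245, 388 and 866 read -0.96, -0.66 and 0.37, with signals of 65437, 154375 and 185490 in MKN74 and 29531, 85802 and 210981 in MKN45. Over all 34 member transcripts with several such probes the 3′-most probe read higher in 21 (61.8%), against 53.6% of 2143 transcripts on the array. The probes nearest the 5′ end, which carry the largest differences, are given here as deposited, with GRCh37 coordinates. The coordinates of both RPS2 probes span more bases than the probes hold, as they do for a probe across a splice junction.
RPL5 at base 179, chr1:93299130-93299189, plus strand: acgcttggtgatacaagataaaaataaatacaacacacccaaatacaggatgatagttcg
RPL5 at base 666, chr1:93303074-93303132, plus strand: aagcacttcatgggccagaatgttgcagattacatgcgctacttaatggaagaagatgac
RPS2 at base 245, chr16:2013243-2014321, minus strand: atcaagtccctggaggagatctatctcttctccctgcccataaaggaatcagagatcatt
RPS2 at base 388, chr16:2012861-2013159, minus strand: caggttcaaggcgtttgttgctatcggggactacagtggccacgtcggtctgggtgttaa

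Over the 42 genes with several probes, the line difference varied less between probes than between genes (SD 0.33 against 0.43), the reverse of the order seen for the knockdown ratios. In 35 of the 42 genes all probes gave 1 sign. RPL28 was the widest, with probes for different mRNAs at -0.90, 0.71 and 1.0. The first was dim, with Cy3 signals of 162 in MKN74 and 76.4 in MKN45. The second had 51763 and 74815, and the third 1099 and 1938. RPS6 read 0.88 at its mRNA probe and -0.13 at a probe for another transcript with a Cy3 signal of 158 in MKN74.

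In the line difference, some paralogs read far from their partners and others close to them. RPL39L, which is restricted to testis and some tumours, was not well above background in MKN74 and was at least 46.6-fold higher in MKN45 in Cy3, and at least 81.1-fold in Cy5. Its partner RPL39 read 0.62. The dim RPS21 and RPS4X probes were at least 6.28-fold and 5.92-fold higher in MKN45 in Cy3. RPL22L1 read -0.27 where RPL22 read 1.01, RPL26L1 -0.31 where RPL26 read 0.60, and RPL7L1 -0.55 where RPL7 read 0.027. RPS27L read 1.79 where RPS27 read 0.64. RPL10L read 0.96 beside 0.71 for RPL10, a close copy of it; cross-hybridisation was not tested. RPL3L, the muscle paralog of RPL3, was dim (Cy3 signals of 29.5 and 34.5) and read 0.41 in Cy3 but -0.055 in Cy5, while RPL3 read 0.082 and 0.019.

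In knockdown ratio, the paralogs measured in both lines ran from -0.19 for RPL7L1 to 0.21 for RPL3L in MKN74, and RPL39L, measured only in MKN45, read 0.012. RPS27L read 0.19 in MKN74 and -0.025 in MKN45, RPL22L1 0.072 and 0.012, RPL26L1 -0.005 and 0.12, and RPL10L -0.065 and -0.003.

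Among other genes of the translation machinery, the mitochondrial ribosomal proteins had a median ratio of 0.01 in MKN74 (78 genes) and -0.05 in MKN45 (77 genes). Their line difference in Cy3 had a median of -0.13, with 14 genes higher and 20 lower at 1.5-fold. The list of translation factors with TOP mRNAs (17 genes) also held genes of other kinds, among them NPM1, HNRNPA1, NAP1L1, TPT1 and GNB2L1. It had median ratios of -0.0007 and 0.002 and a line difference of 0.04, with 4 higher and 4 lower. The 29 ribosome biogenesis genes had 0.003 and -0.036, and a line difference of -0.31, with 2 higher and 11 lower. Among these was MYC, a driver of ribosome synthesis, at -2.06. Of the 9 S6 kinases measured, RPS6KL1 (0.98) and RPS6KA2 (-0.60) passed 1.5-fold in MKN74 and RPS6KA2 (0.65) in MKN45, and 0 did so with both channels measured. MRPL30 passed it in MKN74 (1.11), but not over probes measured in both channels. The S6 kinases had a median line difference of -0.37 in Cy3 over 7 genes and 0.48 in Cy5 over 9. These medians are over different sets of genes, so their signs do not compare the channels. At 1.5-fold, RPS6KA3 and RPS6KB1 were higher and RPS6KA1, RPS6KA4 and RPS6KA5 lower in both channels. RPS6KL1 was higher in Cy5 only. In Cy5 the medians were -0.21 for the mitochondrial ribosomal proteins, 0.033 for the list of translation factors and -0.24 for ribosome biogenesis. The difference between lists was not tested.

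**Figure D5:**
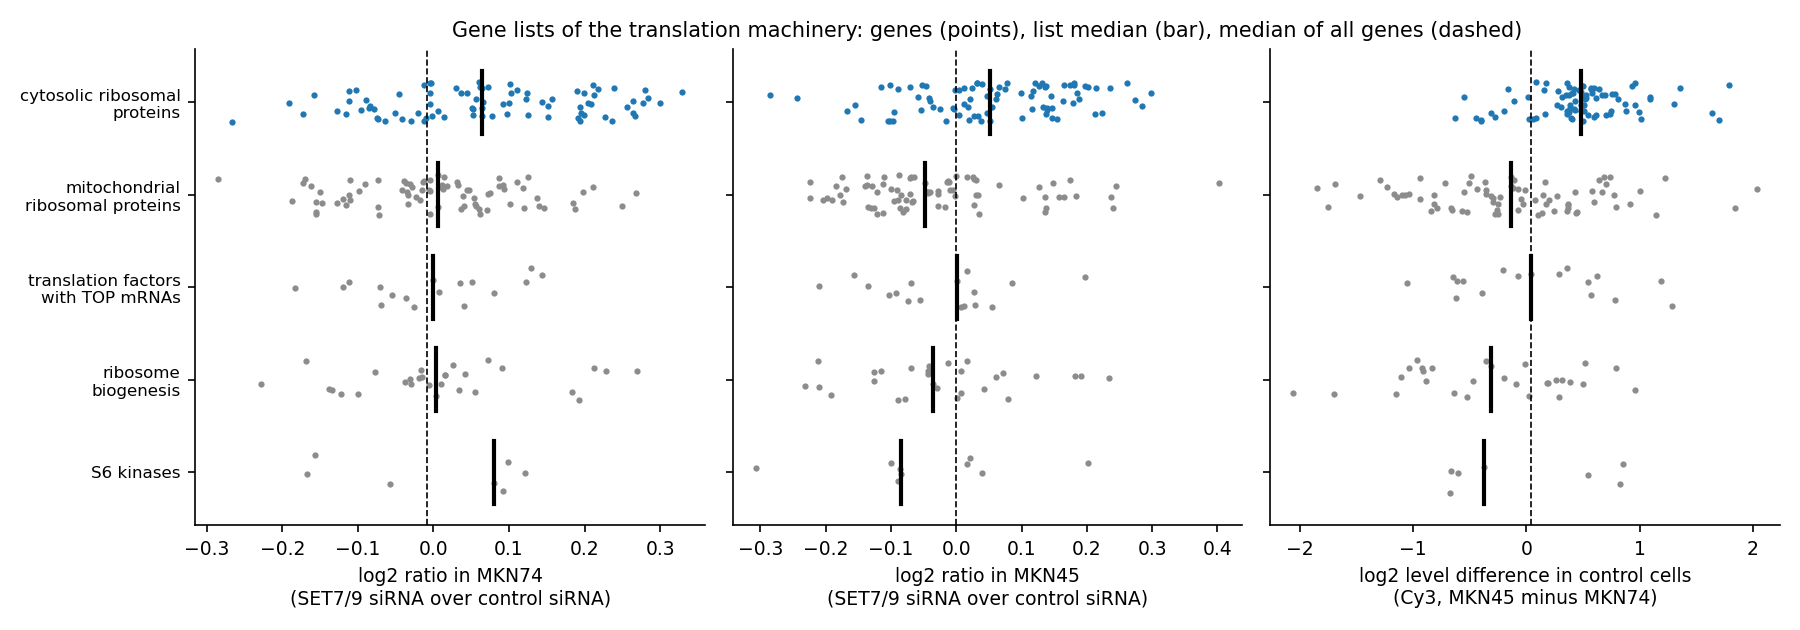
Genes (points), list median (bar) and median of all genes (dashed line) are shown for 5 lists, over probes measured in both channels for the ratios: log2 ratio in MKN74, log2 ratio in MKN45, and log2 Cy3 level in MKN45 minus MKN74. The cytosolic ribosomal proteins are centred near 0 in both ratio panels and at 0.49 in the third.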

How the data were processed

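Each line was measured on 1 Agilent Human GE 4x44K v2 array with both dyes. Files of Agilent's Feature Extraction software (10.7.3.1), as deposited, hold the intensity of each spot per channel and its log10 ratio of Cy5 over Cy3 after linear and LOWESS dye normalization. A further table from the authors holds log2 ratios, empty for dim probes, which lay within 0.01 of the scanner's for 99.6% of MKN74 and 99.4% of MKN45 values. The deposited p-value of each ratio was not used. Probe coordinates are on GRCh37.

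Here log10 ratios were turned into log2 ratios. Spots marked as controls or outliers were dropped (0 of 195 member spots were outliers or saturated), and repeated spots averaged. Probes entered when at least 50% of their spots were well above background in either channel, which held for 164 (MKN74) and 166 (MKN45) of 168 member probes. Both channels were measured for 161 and 165 (95.8% and 98.2%, against 54.5% and 59.4% of all probes). A gene value is the mean over its probes. Bounds for a dim channel used Aquantile-scaled signals, took the lowest well-measured signal of the array as the limit, and are open to dye bias. Common response was fitted with limma 3.58.1 (R 4.3.3, Python 3.11.15) on both arrays, with Benjamini-Hochberg adjustment over all probes in the fit. On simulated data (19595 probes, 200 changed) it recovered 0% of changes of 0.5, 2% of 1, 94% of 2 and 100% of 4 on the log2 scale. In the fit to the arrays the first SETD7 probe, with a mean of -1.99, was not called. The simulated shares therefore do not carry over to the arrays. The number of arrays limits the precision.

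The members and lists were chosen with earlier results of these data known. Named genes were the 5 highest and 5 lowest ratios in each line and line differences, members with a probe past 1.5-fold, the 5 genes whose probes differed most, the fixed subgroups and paralog pairs, RPS6, RPSA, SETD7, GAPDH, and genes of another list past 1.5-fold where 5 or fewer were. RPL28 and MYC were named after their values were seen. Alternatives were another background correction and dye normalization, centring, filters on dim, outlier and saturated spots, the deposited log2 table, the brightest probe per gene, the member set, the cutoff and the scaling between arrays. One gene that these rules pick is not reported here by name, and is left out of the plots of ratios and line differences by gene.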

Additional observations from a re-analysis of the deposited data

Results flagged for a closer look

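RPL3L read 0.21 in MKN74 and -0.24 in MKN45, a difference of -0.45 from 1 probe whose combined software error was 0.40. It was noted because the lines moved in opposite directions by more than that error. The difference itself was not tested, since each line has 1 array. The probe is dim, with a Cy3 signal of 29.5 in MKN74. Of 84 genes compared, 15 had opposite signs in the 2 lines and RPL3L was the only one past the error.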

How the results depend on the processing

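No paired analysis was possible because each line had 1 array, and for the same reason leaving out an array gives no value for its line. No median ratio and no median level difference over the ribosomal protein genes changed sign in the settings run, but the median of the ratio in MKN45 minus that in MKN74 went from -0.007 to 0.010 after normexp and loess. The cause of the shifts was not tested. With background-subtracted signals and 1 constant per array the median ratio was 0.48 in MKN74 and 0.37 in MKN45, the median range between probes of a gene was 0.29 and 0.27, 38 probes and 23 genes passed 1.5-fold in MKN74, and 24 probes and 12 genes did in MKN45. After normexp and loess the MKN45 median was 0.15, 0 probes passed 1.5-fold in MKN74 and 1 in MKN45, and limma called 46 member probes in place of 0. At a cutoff of 1.2-fold, 16 probes and 11 genes passed in MKN74 and 11 probes and 4 genes in MKN45, and at 2-fold 0 probes passed in MKN74. In MKN74, 0 probes passed 1.5-fold with both channels required or in the deposited table, and 4 without a filter on dim probes, when 1 probe and 1 gene passed in MKN45. Except where both channels were required, the shares of all probes and genes past the cutoffs in these settings were not counted. Among the named genes, the ratio changed sign for 35 of 89 values with 1 constant per array, 21 after normexp and loess, 9 of 85 with the brightest probe, 7 in the deposited table, and 2 each with both channels required or median centring.

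The Cy3 difference between lines (MKN45 minus MKN74, median 0.49, 27 genes higher, 1 lower) had a median of 0.11 with 13 higher and 4 lower after quantile normalization, 0.78 with 64 and 0 when scaled to the median, and 0.78 with 64 and 0 before dye normalization. With normexp 2 genes were lower, and with the brightest probe 0. The Cy5 difference (0.43, 30 higher, 2 lower) had a median of 0.079 with 14 and 6 after quantile normalization, 0.73 with 59 and 0 when scaled to the median, and 0.63 with 47 and 0 before dye normalization. With the brightest probe, or without the paralogs, 1 gene was lower. All probes split 23.3% higher and 33.2% lower in Cy3 after quantile normalization, 39.4% and 20.5% when scaled to the median, and 38.3% and 20.9% before dye normalization. In Cy5 they split 23.5% and 34.6%, 40.5% and 20.2%, and 37.9% and 22.1%.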
